A study of Mus musculus with 96 samples.

Results

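Cassette exons are internal exons that a transcript can either carry or leave out. In single bone marrow progenitors they were followed through 4394 rows of the authors' splicing table, out of 80855 rows for all kinds of splicing event and 19305 annotated as cassette exons. Each row gives PSI (percent spliced in, here a fraction from 0 to 1), read here as the share of junction reads that take an examined splice junction rather than a background junction, since the authors' formula is not given in the sources used here. The rows were selected on how often they were measured: a row entered when at least 20 of 96 cells had a PSI value, whatever the value was. At that limit, 263 rows had values in exactly 20 cells with a median mean PSI of 0.90, and 288 rows with 19 cells, median 0.895, stayed out. In 3400 of the rows the 2 junctions shared an end, which tells whether the examined junction joins the exon (2582 rows) or skips it (818 rows). These rows were joined into 2087 exons of 1233 genes, and PSI was turned into inclusion, from 0 where only skipping was seen in a cell to 1 where only inclusion was seen. For 248 of the 2087 only 1 end is known, so both ends of such an exon may be counted as separate exons. In the other 994 rows, from 430 genes, the junctions shared no end. Their mean PSI had a median of 0.978, and they were counted only as rows.

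The cells are 96 single granulocyte-monocyte progenitors (GMP) of C57BL/6 mice with the genotype ThPOK-/-. ThPOK is a transcription factor, and Zbtb7b encodes it. They came from bone marrow by CD117 bead enrichment and flow sorting, were captured on a Fluidigm C1, and were turned into libraries with SMARTer and Nextera XT chemistry. No cell of another genotype was analysed here. Since no animal is named for any cell, the cells count as 1 sample: every SD is over cells, it also holds whatever varies between animals, and no test between states was possible. The authors' annotation assigns 26 cells to Multi-Lin-1, 12 to proNeu-1 and 31 to IG2, and leaves 27 unassigned. Cell names carry the number 078 or 079 (48 cells each), whose meaning is not given and which served only to repeat values.

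Zbtb7b reached a TPM (an abundance scaled for transcript length and for each cell's total) of 1 or more in 2 of 96 cells, with a highest TPM of 2.12 and 0 rows in the splicing table. All 5 primary granule markers of GMP were detected in at least 50% of cells, 4 of 5 mast cell and basophil markers likewise, and all 4 B lymphoid markers in no cell. Reads per junction are unknown, and the number of genes detected per cell, from 1019 to 5203, stands in for depth. Its median was 2950 for Multi-Lin-1, 3940 for IG2, 4127.5 for proNeu-1 and 2613 for unassigned cells. The number of cassette exons with a value followed it closely (Spearman's rho 0.954 over 96 cells), with a median of 843.5 exons per cell and a range from 4 to 1462. No pair of cells held identical values.

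Exons are chosen by the spliceosome with the help of RNA-binding proteins. SR proteins, rich in serine and arginine, mostly favour inclusion of the exons they bind, while hnRNP proteins often favour skipping. When a skipped coding exon has a length divisible by 3, the frame downstream is kept and a shorter protein results. Other cassette exons bring a stop codon into the message. Such poison exons send the transcript to nonsense-mediated decay (NMD), and many SR and hnRNP genes use them to hold down their own level.

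The exons below carry the main results and show both kinds. The first set are coding exons. Each is printed in capitals between 15 lower-case bases of the neighbouring exons, 5′ to 3′ on the coding strand, cut from GENCODE M21 transcripts, with positions on GRCm38 (mm10).
Hnrnpa2b1, 120 nt, chr6:51464428-51464547, minus strand: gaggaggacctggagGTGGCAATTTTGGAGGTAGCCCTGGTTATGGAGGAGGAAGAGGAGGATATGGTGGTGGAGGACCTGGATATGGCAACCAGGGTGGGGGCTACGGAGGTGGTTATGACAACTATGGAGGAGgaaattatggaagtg
Hnrnpd, 147 nt, chr5:99963731-99963877, minus strand: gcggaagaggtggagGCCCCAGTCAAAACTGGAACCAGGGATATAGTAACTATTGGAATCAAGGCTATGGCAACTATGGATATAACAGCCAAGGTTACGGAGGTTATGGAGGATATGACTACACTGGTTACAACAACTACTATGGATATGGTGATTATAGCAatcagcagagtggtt
Hnrnpab, 141 nt, chr11:51601750-51601890, minus strand: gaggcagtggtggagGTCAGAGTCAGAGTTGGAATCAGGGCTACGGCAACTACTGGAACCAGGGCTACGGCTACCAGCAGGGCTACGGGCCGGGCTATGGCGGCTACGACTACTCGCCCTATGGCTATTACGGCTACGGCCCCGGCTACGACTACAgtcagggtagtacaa
Mbnl1, 54 nt, chr3:60614683-60614736, plus strand: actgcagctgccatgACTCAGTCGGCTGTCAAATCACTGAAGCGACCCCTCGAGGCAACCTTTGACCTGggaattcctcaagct
Cd47, 63 nt, chr16:49869018-49869080, plus strand: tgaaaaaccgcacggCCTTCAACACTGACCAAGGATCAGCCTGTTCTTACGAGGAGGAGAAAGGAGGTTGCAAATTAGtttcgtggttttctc
Acin1, 120 nt, chr14:54678743-54678862, minus strand: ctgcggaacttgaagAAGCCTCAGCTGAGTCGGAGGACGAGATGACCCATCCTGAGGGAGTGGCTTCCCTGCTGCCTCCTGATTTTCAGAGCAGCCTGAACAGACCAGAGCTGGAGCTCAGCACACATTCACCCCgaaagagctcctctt
Tspan32, 84 nt, chr7:143017201-143017284, plus strand: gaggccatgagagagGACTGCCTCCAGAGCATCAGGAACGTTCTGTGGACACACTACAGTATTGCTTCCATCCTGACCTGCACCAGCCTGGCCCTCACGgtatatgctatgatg
Clta, 36 nt, chr4:44031400-44031435, plus strand: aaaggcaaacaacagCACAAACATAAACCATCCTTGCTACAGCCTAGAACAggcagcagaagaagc
Idh3g, 12 nt, chrX:73782298-73782309, minus strand: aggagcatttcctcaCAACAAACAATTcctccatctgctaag

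The second set are poison exons of splicing factor genes. Each is printed from the first base of the exon to the stop codon of the annotated NMD transcript, which is in capitals.
Tra2b, 276 nt, chr16:22258986-22259261, minus strand: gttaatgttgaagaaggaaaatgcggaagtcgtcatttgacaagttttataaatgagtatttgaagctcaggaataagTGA
Rbm39, 73 nt, chr2:156178880-156178952, minus strand: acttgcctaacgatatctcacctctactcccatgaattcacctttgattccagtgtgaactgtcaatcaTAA
Srsf11, 117 nt, chr3:158023243-158023359, minus strand: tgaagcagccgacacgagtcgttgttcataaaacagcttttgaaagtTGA
Srsf7, 460 nt, chr17:80204622-80205081, minus strand: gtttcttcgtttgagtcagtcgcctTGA
Srsf3, 456 nt, chr17:29039454-29039909, plus strand: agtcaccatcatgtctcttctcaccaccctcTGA
The stop was complete after 81 bases of the Tra2b exon, 72 of Rbm39, 50 of Srsf11, 28 of Srsf7 and 34 of Srsf3.

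Most of the exons were nearly always included. The mean inclusion over cells had a median of 0.964 over the 2087 exons, with 1403 exons (67.2%) at 0.9 or more, 427 (20.5%) at 0.1 or less and 257 (12.3%) in between, called mixed from here on. In 377 exons every cell with a value was at 1, and in 133 every cell was at 0. An exon had values in 20 to 95 cells, with a median of 33. The exons measured most often lay in ribosomal protein genes, among them exons of Rps26 (0.997 ± 0.0127, mean ± SD, 94 cells) and Rps10 (0.998 ± 0.0110, 94 cells). An 81-nt exon of Rps19 that is annotated only in NMD transcripts was at 0.1 or less in 91 of 95 cells.

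What the annotation says of an exon went with its inclusion in the RNA measured. Skipping of an exon and decay of the transcripts that carry it cannot be told apart in these values. Of the exons, 1839 could be placed on an annotated internal exon. The 1494 exons that lie wholly in the coding sequence of a protein-coding transcript had a median mean inclusion of 0.981, and 46 of them (3.08%) were mostly skipped. The 83 exons found only in NMD transcripts had a median of 0.0417, with 56 (67.5%) mostly skipped, 22 mixed and 5 mostly included. In 63 of these 83 the annotated stop codon lay inside the exon, in 11 after it and in 9 before it. The 103 exons in untranslated regions (UTRs) had a median of 0.0568, and the 57 of noncoding transcripts 0.0354. The 248 exons that could not be placed, with a median of 0.00733, were the most often skipped class, at 83.9% of them. They made up 208 of the 427 mostly skipped exons. Each is known from 1 end only, so both ends of an exon may be counted apart, and these counts may be too high. Exons of one gene share its transcripts and reads, so these counts are not over independent units.

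**Figure D1:**
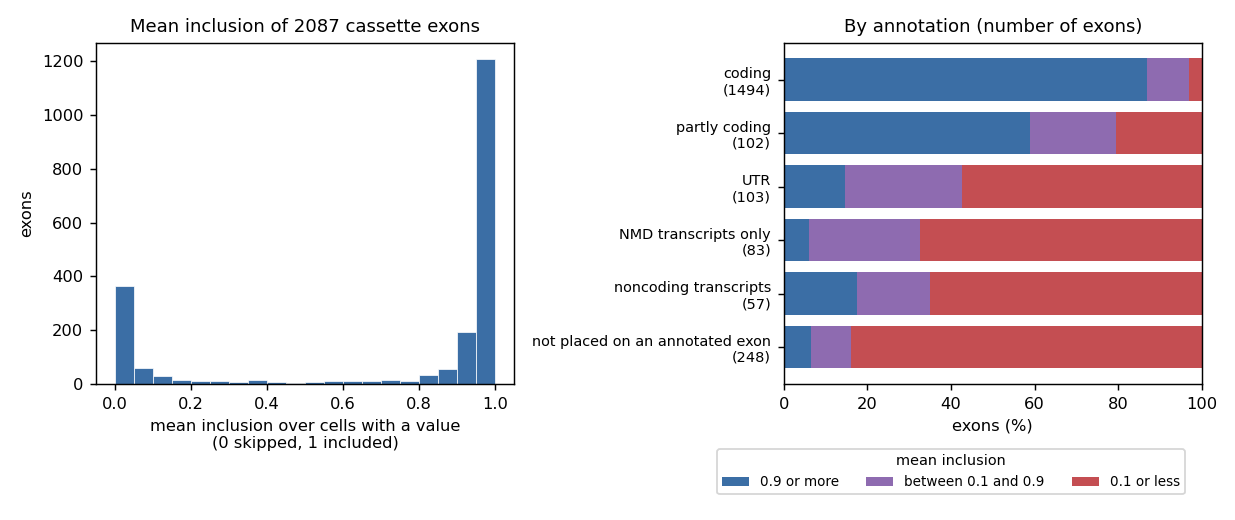
Left, the number of exons by mean inclusion over cells (0 skipped, 1 included) for all 2087 cassette exons; right, the percent of exons with a mean of 0.9 or more, between 0.1 and 0.9, or 0.1 or less, by annotation, with the number of exons in brackets. Means pile up at both ends on the left, and 86.8% of coding exons but 6.02% of exons found only in NMD transcripts are mostly included.

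Reading frame differed between the classes of inclusion. Among coding exons with a mean of 0.9 or more, 439 of 1297 had a length divisible by 3 (33.8%, Clopper-Pearson 95% interval 31.3 to 36.5%). Among mixed coding exons it was 85 of 151 (56.3%, 47.99 to 64.3%), and among mostly skipped ones 32 of 46 (69.6%, 54.2 to 82.3%). The interval of the mostly included exons overlapped neither of the others. Over all coding exons the share was 37.2% (556 of 1494, 34.8 to 39.7%). Coding cassette exons with values in 1 to 19 cells gave 41.5% (1663 of 4003, 40.01 to 43.1%). Over all placed exons the share was 36.4% (670 of 1839, 34.2 to 38.7%), against 39.4% (38.03 to 40.7%) of 5208 placed cassette exons with values in 1 to 19 cells. The intervals cover only the counting of exons. The printed Hnrnpa2b1, Hnrnpd, Hnrnpab, Mbnl1, Cd47 and Acin1 exons are mixed exons that keep the frame, and the 36-nt exon of Clta, a clathrin light chain gene, is a skipped one that keeps it, at 0.1 or less in 46 of 47 cells.

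**Figure D2:**
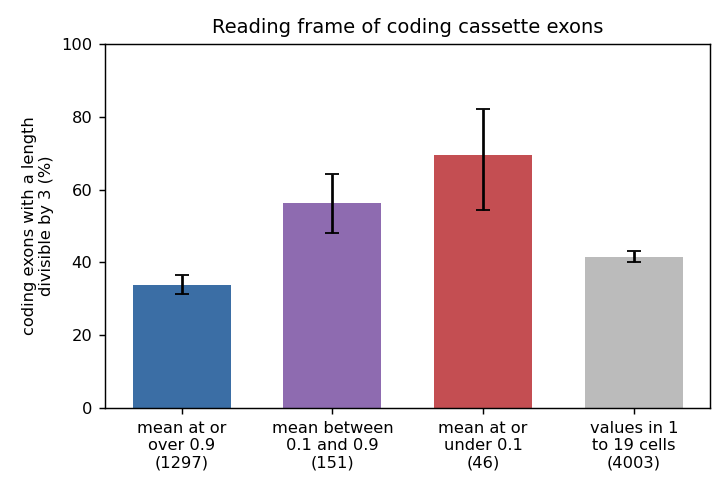
Percent of coding cassette exons with a length divisible by 3, by mean inclusion, and in cassette exons measured in 1 to 19 cells; bars are shares, whiskers 95% Clopper-Pearson intervals and brackets the number of coding exons. The share was 33.8% in mostly included, 56.3% in mixed and 69.6% in mostly skipped exons.

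Length itself ran from 5 to 2169 nt, with a median of 103 nt, and 43 exons had 30 nt or less. Of 36 coding exons this short, 28 (77.8%, 60.8 to 89.9%) were mostly included, against 875 of 990 (88.4%, 86.2 to 90.3%) with 61 to 150 nt, and the intervals overlapped. The 12-nt exon of Idh3g, a subunit of mitochondrial isocitrate dehydrogenase, was among the mixed ones. It averaged 0.737 ± 0.394 over 54 cells, with 7 cells at 0.1 or less, 12 in between and 35 at 0.9 or more. The longest, 2169 nt of Zfp106, averaged 0.954 ± 0.164 over 25 cells. A 12-nt exon of Commd6 was at 1 in all 33 cells, and a 5-nt exon of the septin gene Sept7 was at 0.1 or less in 46 of 47 cells.

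Within a cell, inclusion was mostly all or none. Of 81407 inclusion values 65.4% were exactly 1 and 23.9% exactly 0, and 4.51% lay over 0.1 and under 0.9. Even in mixed exons 46.6% of 9022 values were at 0.9 or more, 34.1% at 0.1 or less and 19.4% in between. At least 20% of cells sat at each end in 85 exons, while over 50% of cells lay in between in 9 exons. The share in between was 3.96% for Multi-Lin-1 and 4.01% for unassigned cells, the groups with fewer genes detected, and 4.83% for IG2 and 4.99% for proNeu-1.

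Intermediate values were more common where the host gene was higher. In mixed exons they made up 11.97% (8.44 to 16.3%) of values in cells with the gene under a TPM of 10, 16.4% (14.7 to 18.1%) from 30 to 100, and 28.2% (24.9 to 31.7%) at 1000 or more. Over all exons the same share went from 3.99% to 5.22%. Host genes of the 9 exons with mostly intermediate cells had a median log2(TPM + 1) of 6.13, and those of the 85 split exons 3.43, beside 3.71 for all exons. The intervals cover only the counting of values, which share exons and cells and are not independent. The TPM ranges need not hold the same exons, so the level and the choice of exons cannot be told apart here. The part of depth in the values at 0 and 1 was not tested.

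**Figure D3:**
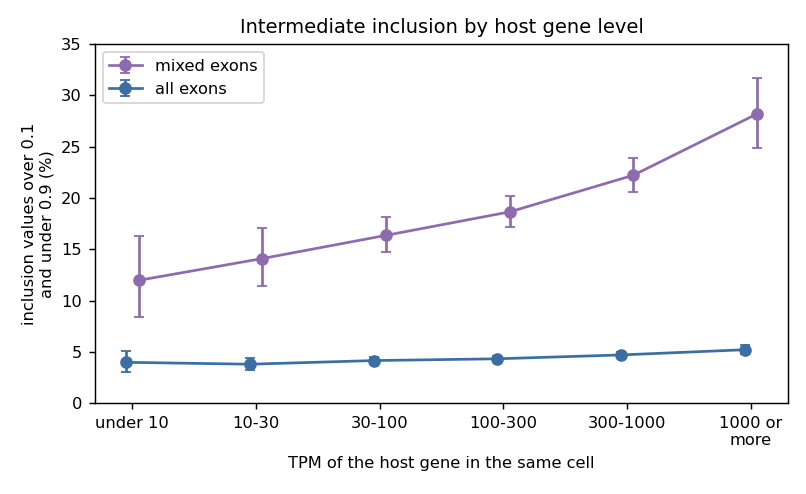
Percent of inclusion values over 0.1 and under 0.9, by the TPM of the host gene in the same cell, for the 257 mixed exons and for all exons with a host gene in the expression table; whiskers are 95% Clopper-Pearson intervals over values. In mixed exons the share goes from 11.97% under a TPM of 10 to 28.2% at 1000 or more. Values share exons and cells, and the TPM ranges need not hold the same exons.

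An exon's value in a cell is a mean over its rows, and rows that disagree also give an intermediate mean. Of 3671 intermediate values, 2068 (56.3%) came from rows that differed by over 0.1, and in 587 (15.99%) no single row lay in between. Counting a cell only where at least 1 row lay in between, 3.79% of all values were intermediate, and 4 of the 9 exons still had over 50% of their cells there.

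Both patterns occurred among splicing factor genes. The printed 120-nt exon of Hnrnpa2b1, an hnRNP, had 62 of 82 cells in between, with a lowest value of 0.0457, a median of 0.658 and a highest of 1. A partly coding 118-nt exon of the splicing regulator Rbm25 had 46 of 57 cells in between (median 0.50), and the 460-nt Srsf7 poison exon 48 of 82 (median 0.320). A 114-nt coding exon of Atrx, a chromatin remodeller gene, had 27 of 39 cells in between and none at 0.1 or less, for a mean of 0.577 ± 0.336. Rows disagreed for all of these exons. They differed by over 0.1 in all 27 Atrx cells, all 46 Rbm25 cells, 45 of the 48 Srsf7 cells and 61 of the 62 Hnrnpa2b1 cells. No single row lay in between in 20 of the 27 Atrx cells and 23 of the 46 Rbm25 cells, against 7 of 48 for Srsf7 and 3 of 62 for Hnrnpa2b1. At the other extreme, the 120-nt exon of Acin1, whose product sits on spliced junctions, had 16 cells at 0.1 or less, 16 at 0.9 or more and 9 in between. A 74-nt exon of the splicing regulator Rbm5 split 15 to 15 with 4 in between, a 95-nt exon of Mbnl2 10 to 11 with 1, and a 71-nt NMD exon of Luc7l, which encodes a U1 snRNP-associated protein, 12 to 8 with 0. The hosts differed in level: Hnrnpa2b1 had a mean log2(TPM + 1) of 8.47 and Srsf7 7.90, against 4.88 for Acin1 and 2.98 for Luc7l.

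**Figure D4:**
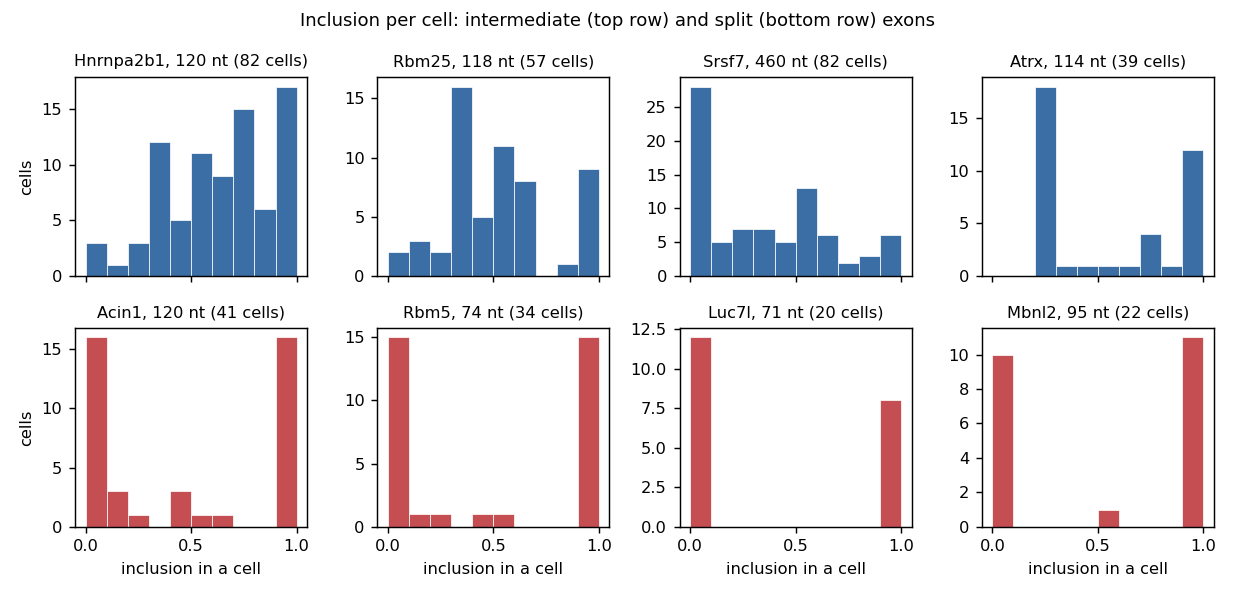
Number of cells by inclusion, in bins of width 0.1, for 4 exons among those with the largest share of cells in between (top) and 4 among the most evenly split exons (bottom), with exon length and cells with a value above each panel. The Hnrnpa2b1 exon has 62 of 82 cells in between, while the Luc7l exon has none. In all 4 upper exons the rows differed by over 0.1 in most cells in between. The peaks of Atrx and Rbm25 at low values hold such cells.

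Genes of RNA splicing had the highest share of mixed exons among the 9 gene lists. Of 93 genes in the list 46 had an exon, and 39 of their 116 exons (33.6%) were mixed, beside 12.3% of all exons, with 33 mostly skipped and 44 mostly included. Exons found only in NMD transcripts made up 16 of the 116 (13.8%, in 12 genes), beside 3.98% of all exons, and 8 of the 16 were mixed. The mixed share was 22.2% in the haematopoietic list (6 of 27 exons), 20.8% in chromatin and transcription (5 of 24) and 20.6% in translation (7 of 34). It was 14.3% in cell cycle and apoptosis (3 of 21), 12.5% in metabolism and mitochondria (5 of 40), 10% in signalling (2 of 20), 7.69% in cytoskeleton and adhesion (1 of 13) and 0% in membrane traffic (0 of 32). The lists were drawn up with earlier results of these data known, and the shares are descriptions.

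Poison exons of Srsf3, Srsf7, Tra2b and Rbm39 ranged, in the RNA measured, from nearly always skipped to a mean inclusion of 0.382. The Srsf3 exon was at 0.1 or less in 59 of 71 cells (mean 0.0933 ± 0.244), while the Srsf7 exon averaged 0.352 ± 0.318 over 82 cells. The 276-nt exon of Tra2b, a splicing activator, averaged 0.382 ± 0.416 over 69 cells, with 30 cells at 0.1 or less and 19 at 0.9 or more. In Rbm39, which encodes a U2AF-related factor, 4 NMD exons were measured. The printed 73-nt exon averaged 0.371 ± 0.348 (79 cells) and a 72-nt exon 0.355 ± 0.385 (63 cells), while those of 55 nt (0.0175) and 274 nt (0.0266) were nearly always skipped.

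Mixed exons of hnRNP genes included coding, UTR and NMD exons. The Hnrnpd exon averaged 0.609 ± 0.456 (46 cells), the Hnrnpab exon 0.439 ± 0.405 (56 cells), and a 26-nt UTR exon of Hnrnpc 0.765 ± 0.334 (68 cells). A 1711-nt NMD exon of Hnrnpa1 averaged 0.668 ± 0.358 (82 cells). The neighbouring 123-nt exon of Hnrnpa2b1 was at 0.9 or more in 73 of 82 cells, unlike the printed 120-nt one. Mbnl1, a regulator of splicing in development, skipped its 54-nt exon in most cells (0.198 ± 0.299, 75 cells) and kept its 36-nt exon (0.927 ± 0.152, 73 cells). An exon of Pcbp2, a poly(C)-binding protein gene, averaged 0.547 ± 0.447 (61 cells).

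Outside splicing, mixed exons included the printed one of Cd47, the surface signal that holds off phagocytes, with 26 of 54 cells at 0.1 or less, 19 in between and 9 at 0.9 or more (0.348 ± 0.397). The 72-nt exon of the elongation factor gene Eef1d averaged 0.636 ± 0.364 (74 cells) and the 140-nt exon of Eif4a2, an initiation factor helicase, 0.627 ± 0.444 (56 cells). The 357-nt exon of Myb, a transcription factor of progenitors, was at 0.1 or less in 41 of 49 cells. A 95-nt exon of Meis1, a stem cell transcription factor, averaged 0.707 ± 0.444 over 23 cells.

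Between the authors' states, few exons differed by much. An exon was compared where each state had at least 8 cells with a value, and a difference of mean inclusion of 0.2 or more was counted. The 3 comparisons share cells and are not independent of each other. IG2 against Multi-Lin-1 gave 16 of 931 exons (1.72%), 4 higher in IG2 (0.43%) and 12 lower (1.29%). proNeu-1 against IG2 gave 5 of 748 (0.668%), 3 higher in proNeu-1 (0.401%) and 2 lower (0.267%). proNeu-1 against Multi-Lin-1 gave 10 of 563 (1.78%), 4 higher in proNeu-1 (0.71%) and 6 lower (1.07%). Over all kinds of splicing event, by the PSI of single rows, the same limits counted 1.7% of 8927, 0.968% of 7229 and 1.63% of 5660 events. Cassette-exon rows gave 2.48%, 0.954% and 1.92%, and those whose junctions share no end gave 1 of 390, 1 of 305 and 3 of 216. The all-event figures include the cassette-exon rows.

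Cells split by their number also showed differences of this size. Between cells numbered 078 and 079, 39 of 2036 exons (1.92%) differed by 0.2 or more. Each number has 48 cells, unassigned ones included, which is more than any state, so this share is not like for like. Over the 929 exons measured well enough for both, IG2 and Multi-Lin-1 differed in 16 and the label numbers in 12. The same counts were 5 and 10 over the 747 exons of proNeu-1 against IG2, and 10 and 5 over the 563 of proNeu-1 against Multi-Lin-1. Of the 16, 13 had the same direction within 078 and within 079, as did 4 of 5 for proNeu-1 against IG2 and 7 of 10 for proNeu-1 against Multi-Lin-1. In 0 of 16, 0 of 5 and 1 of 10 was the difference larger than the SD over cells of both states. A median exon differed by 0.0116 between IG2 and Multi-Lin-1, and 75.9% of exons by less than 0.05.

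Splicing factor genes were among those with differing exons. An exon with an overall mean near 0 or 1 can hardly reach a difference of 0.2, so that mixed exons are favoured by their definition. All 16 exons of IG2 against Multi-Lin-1 were among the 99 mixed exons compared, as were 5 of 5 for proNeu-1 against IG2 (68 mixed exons) and 9 of 10 for proNeu-1 against Multi-Lin-1 (48). The RNA splicing list held 7 of the 16, out of 85 exons compared (8.24%, 2 higher and 5 lower in IG2, median difference 0 as for all exons). Its mixed exons gave 7 of 24, and the mixed exons outside it 9 of 75. The label numbers differed in 3 of the same 85. The other 8 lists gave 0 exons in every comparison, but few of their exons were compared. Each list had 6 to 23 for IG2 against Multi-Lin-1 and for proNeu-1 against IG2, and 3 to 19 for proNeu-1 against Multi-Lin-1. With so few exons, 0 does not set a list apart from the splicing list. For proNeu-1 against Multi-Lin-1 the splicing list gave 5 of 59 (8.47%, 1 higher and 4 lower in proNeu-1), and for proNeu-1 against IG2 0 of 61. Of 42 exons found only in NMD transcripts, 4 (9.52%) were lower in IG2 than in Multi-Lin-1 by 0.2 or more and 0 were higher. Over all exons compared, 1.29% were lower. Counting any difference, 17 of the 42 were higher and 20 lower in IG2. UTR exons likewise gave 3 of 51 lower (5.88%) and 0 higher by 0.2 or more. The NMD class is also richer in mixed exons, at 26.5% of its 83 members beside 12.3% of all exons.

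The largest difference between IG2 and Multi-Lin-1 was in a 136-nt exon in the UTR of Hnrnpa2b1 (chr6:51461920-51462055). This exon rests on 1 row, so no second row could be compared with it. In Multi-Lin-1 its 9 cells ran from 0 to 1 with a median of 1, in IG2 its 18 cells from 0 to 1 with a median of 0, and in proNeu-1 its 8 cells from 0 to 0.716 with a median of 0. High cells were in the majority only in Multi-Lin-1, and the groups overlapped. The means were 0.679 ± 0.446, 0.249 ± 0.419 and 0.117 ± 0.254, so that IG2 was lower than Multi-Lin-1 by 0.43 (0.295 in cells numbered 078 and 0.615 in 079) and proNeu-1 lower by 0.562. The coding 120-nt exon of the same gene differed by less than the SD over cells, at 0.627 ± 0.188 in IG2 (30 cells) and 0.56 ± 0.304 in Multi-Lin-1 (22 cells).

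The Tra2b poison exon ran from 0 to 1 in each state, with a median of 0.326 in 17 Multi-Lin-1 cells, 0.0532 in 27 IG2 cells and 0.222 in 9 proNeu-1 cells. Cells at 0.1 or less were 3 of 17, 17 of 27 and 4 of 9, and the means were 0.517 ± 0.422, 0.273 ± 0.365 and 0.306 ± 0.356. The 73-nt Rbm39 exon also ran from 0 to 1 in each state, with medians of 0.514 in 21 Multi-Lin-1 cells, 0.136 in 29 IG2 cells and 0.209 in 12 proNeu-1 cells. Its means were 0.522 ± 0.342, 0.268 ± 0.302 and 0.277 ± 0.353. IG2 was lower than Multi-Lin-1 in both label numbers, by 0.384 and 0.104, while proNeu-1 was lower by 0.574 in 078 and higher by 0.092 in 079. The Srsf11 exon averaged 0.427 ± 0.505 in 9 Multi-Lin-1 cells and 0.132 ± 0.299 in 16 IG2 cells, and a 75-nt NMD exon of Rsrc2, a gene of the arginine and serine-rich kind, 0.333 ± 0.50 in 9 and 0.0379 ± 0.136 in 15. Each had values in 6 proNeu-1 cells, too few to be compared, which averaged 0.46 ± 0.512 for Srsf11 and 0.384 ± 0.454 for Rsrc2, above both other states. IG2 minus Multi-Lin-1 was -0.295 for Srsf11 in all cells, but -0.193 within 078 and -0.161 within 079, both short of the limit of 0.2. Within 078 and 079 it was -0.328 and -0.154 for Tra2b, and -0.334 and -0.244 for Rsrc2. All 4 exons overlapped between the states. Taken row by row, IG2 minus Multi-Lin-1 ran from -0.284 to -0.253 for Rbm39, from -0.351 to -0.274 for Srsf11 and from -0.266 to -0.119 for Tra2b. For Rsrc2 it ran from -0.277 to 0.00058, so that its difference is not seen in every row.

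The host genes of these 4 exons had higher mean levels in IG2 than in Multi-Lin-1, by less than the SD over cells. The share of all host genes that were higher in IG2 is not given here, so this direction cannot be called particular to the 4. Mean log2(TPM + 1) was 7.91 ± 1.69 against 6.83 ± 2.99 for Tra2b, 6.44 ± 1.86 against 5.53 ± 2.22 for Rbm39, 5.45 ± 2.58 against 4.997 ± 3.405 for Srsf11 and 5.10 ± 3.32 against 4.16 ± 3.64 for Rsrc2. Genes detected were also higher in IG2 (above), and so was the summed log2 level of the 5 primary granule markers, with a median of 60.7 against 27.8 (ranges 51.98 to 65.9 and 6.56 to 52.5). The summed level of 5 erythroid and megakaryocyte markers had a median of 0.275 in IG2 (0 to 14.2) and 5.61 in Multi-Lin-1 (0 to 24.3). The part of depth, host level or cell type in the differences was not tested. With cells of at least 2000 genes detected alone, 17 exons differed between IG2 and Multi-Lin-1, beside 16 with all cells. The lowest IG2 cell had 2540 genes detected and the lowest Multi-Lin-1 cell 1660. That limit therefore took out no IG2 cell and did not match depth between the states.

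Other exons went the same way or the opposite one. The Tspan32 exon, in a gene of a blood cell tetraspanin, averaged 0.457 ± 0.455 in 17 IG2 cells, 0.749 ± 0.377 in 13 Multi-Lin-1 cells and 0.68 ± 0.418 in 11 proNeu-1 cells. A 99-nt UTR exon of Lsm6, an RNA-binding protein of the spliceosome, followed the same order at 0.489 ± 0.396 (27 cells), 0.709 ± 0.451 (15 cells) and 0.691 ± 0.31 (10 cells). The Acin1 exon was at 0.364 ± 0.44 in 18 IG2 cells and 0.619 ± 0.477 in 10 Multi-Lin-1 cells. Its difference, IG2 minus Multi-Lin-1, was -0.434 in 078 but -0.0451 in 079. A 102-nt coding exon of 0610010K14Rik was highest in proNeu-1, at 0.853 ± 0.30 (8 cells), with 0.706 ± 0.389 in IG2 (14 cells) and 0.437 ± 0.482 in Multi-Lin-1 (10 cells). The printed Hnrnpd exon was higher in IG2 by 0.252, but by 0.578 in 079 and with the opposite sign in 078 (-0.0325).

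In proNeu-1 the printed Mbnl1 exon stayed at 0.442 or less in all 10 cells (mean 0.0799 ± 0.145), while 17 Multi-Lin-1 cells ran from 0 to 1 (0.336 ± 0.411) and 31 IG2 cells from 0 to 0.562 (0.146 ± 0.202). A 181-nt exon of Rnps1, a splicing activator of the exon junction complex, averaged 0.091 ± 0.185 in 9 proNeu-1 cells and 0.319 ± 0.465 in 9 Multi-Lin-1 cells. An exon of the SR gene Srsf5 that could not be placed was at 0 in all 11 Multi-Lin-1 cells and averaged 0.206 ± 0.307 in 10 proNeu-1 cells. An 86-nt exon of the chaperonin gene Tcp1 was also higher in proNeu-1, at 0.944 ± 0.163 in 11 cells and 0.733 ± 0.414 in 13 cells. Against IG2, a 115-nt exon of Med21, a subunit of the Mediator complex, was higher in proNeu-1, at 0.997 ± 0.00957 (9 cells) and 0.75 ± 0.396 (15 cells). An exon of Ntan1 was lower in proNeu-1 by 0.372 (8 cells against 11), and the difference was absent in cells numbered 079 (0) and 0.993 in 078.

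**Figure D5:**
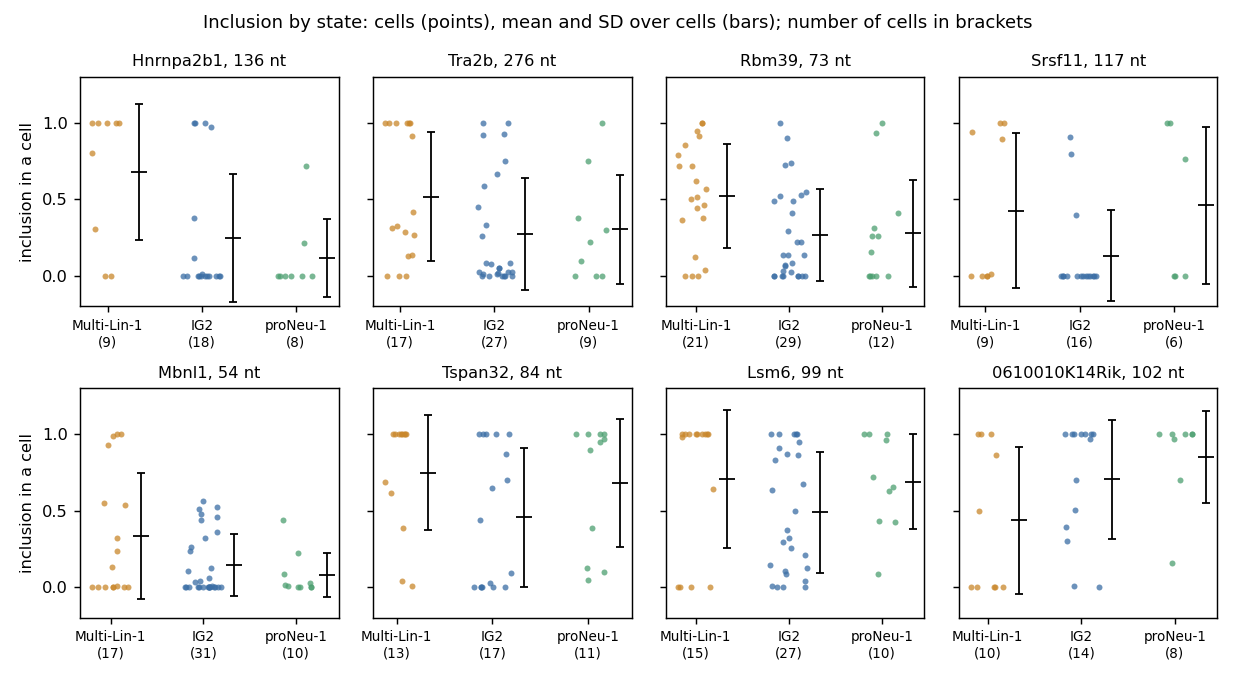
Inclusion per cell of 8 exons in the states Multi-Lin-1, IG2 and proNeu-1; points are cells, bars the mean and SD over cells beside them, with exon length above and cells with a value in brackets. Cells of every state lie at or near 0 in each panel apart from proNeu-1 in the 0610010K14Rik panel, and Multi-Lin-1 has the highest mean in the Hnrnpa2b1, Tra2b, Rbm39, Mbnl1, Tspan32 and Lsm6 panels.

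One of the exons measured in the most cells lay just under the limit. A 20-nt exon in the UTR of the ribosomal protein gene Rps24 (chr14:24495430-24495449) had values in 94 cells. Its values ran from 0 to 0.666 in 25 Multi-Lin-1 cells (median 0.168), from 0 to 0.202 in 31 IG2 cells (median 0.00191) and from 0 to 0.192 in 12 proNeu-1 cells (median 0.00122). Values above the highest IG2 cell occurred in Multi-Lin-1 and among the 26 unassigned cells with a value, which reached 0.351, and the groups overlapped. The mean was 0.223 ± 0.204 in Multi-Lin-1 and 0.0367 ± 0.0606 in IG2, a difference of 0.186 (0.209 in 078 and 0.169 in 079), smaller than the SD in Multi-Lin-1 and larger than that in IG2. Mean log2(TPM + 1) of Rps24 was 9.78 ± 1.74 in Multi-Lin-1 and 10.08 ± 0.50 in IG2. An 18-nt exon of the same gene was at 0.1 or less in 90 of 94 cells.

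Over all values, rows that report on the same exon mostly gave like values, but not where inclusion was intermediate. In 96.5% of 25510 cases the junctions into and out of an exon gave inclusion within 0.1 of each other in the same cell, and in 92.97% of 34407 cases an inclusion and a skipping row did so. Among intermediate values, rows differed by over 0.1 in 56.3% over all exons and in 64.2% over mixed exons. In mixed exons of the RNA splicing list it was 72.4%. Examined junctions were in the annotation in 86.5% of rows and background junctions in 52.4%. The skipping junction was annotated for 1064 of the exons (50.98%).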

How the data were processed

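Single-cell RNA-seq of 96 cells of 1 genotype was used. The authors deposited PSI as fractions from 0 to 1 per splicing row, with no junction read counts, and expression as log2(TPM + 1), checked from the totals of the values. How PSI was computed is not given in the sources used here. Per the submitters' processing notes Bowtie2, RSEM and STAR and the builds mm9 and mm10 are named, with no versions or roles. The authors' state names came from a deposited annotation. Another 1142 columns of the splicing table, for cells that no label maps, were not used, nor was its column of PSI differences.

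Members and gene lists were chosen with earlier results of these data known. Rows of an exon were averaged per cell, after taking 1 minus PSI where the examined junction skips the exon. A row gives 1 end of its exon, and the other end came from internal exons of GENCODE M21 (GRCm38), in whose junctions 3799 of 4394 examined junctions were found at the same position. Both ends were at junctions of the splicing table in 1264 of 1839 placed exons. Joining was tested on simulated rows that agreed within each exon and lay on annotated exons. That test does not cover rows that disagree or exons that could not be placed. Agreement of single rows within an exon was looked at after its values were seen. With 1 sample no test was made. Shares carry 95% Clopper-Pearson intervals, which cover counting only. Reads without molecular identifiers are not independent molecules.

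Exons named are members of the 9 lists, up to 8 with the largest difference per state pair and the same sign in both label numbers, 10 each with the most cells, the largest share in between and the most even split, and the shortest, longest and edge exons. Ntan1, whose direction differed between the label numbers, was named after its values were seen. Python 3.11.15, NumPy 2.4.6, SciPy 1.17.1 and matplotlib 3.10.9 were used. Results on some items are not reported here.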

Additional observations from a re-analysis of the deposited data

How the results depend on the processing

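The cell and value limits set how many exons differed between states. For IG2 against Multi-Lin-1, proNeu-1 against IG2 and proNeu-1 against Multi-Lin-1, where the main counts were 16, 5 and 10, at least 5 cells per state gave 50, 45 and 47 exons. At least 12 cells gave 5 for the first, and at least 10 cells gave 2 and 4 for the others. A difference of 0.1 gave 84, 48 and 41, and of 0.3 gave 1, 1 and 3. Cells numbered 078 alone, with at least 4 cells per state, gave 52, 43 and 31, and those numbered 079 gave 60, 38 and 29. Each row on its own gave 46, 13 and 18. With host genes at a TPM of 30 or more the third count was 5. The cause was not tested, apart from the changed limits and the smaller cell numbers themselves.

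The share of intermediate values, 4.51%, was 5.70% with limits of 0.05 and 0.95, 2.71% with 0.25 and 0.75, and 4.25% over single rows. The median mean inclusion, 0.964, was 0.976 for rows with at least 40 cells, 0.9496 with at least 10, 0.970 in cells numbered 079 and 0.960 over single rows. The share of lengths divisible by 3, 36.4%, was 46.8% in mixed exons alone. Depth limits every value: reads per junction are unknown, so an exon at 0 or 1 in a cell may rest on few reads. No paired analysis was possible because there is 1 group of cells with no replicate numbers.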

Other observations

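Some genes held several measured cassette exons with unlike inclusion. Tpd52l2 and Vrk1 had 7 exons each, and Acin1 had 6, in which the printed 120-nt exon and a 65-nt one (0.42 ± 0.462, 21 cells) were mixed and a 66-nt exon was at 0.9 or more in 42 of 43 cells. In Tpm3, a tropomyosin gene, a 79-nt exon was at 0.1 or less in 60 of 79 cells (0.112 ± 0.246). In Immt, which shapes the inner mitochondrial membrane, exons of 105, 96 and 15 nt averaged 0.907 ± 0.274 (39 cells), 0.309 ± 0.408 (36 cells) and 0.713 ± 0.411 (29 cells). A 94-nt UTR exon of Eif5a, a translation factor, was in between in 24 of 90 cells and averaged 0.181 ± 0.249 in Multi-Lin-1 (25 cells), 0.0916 ± 0.0987 in IG2 (31 cells) and 0.0396 ± 0.054 in proNeu-1 (12 cells).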
